A study of Homo sapiens with 8 samples.

Results

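The genes described here are those of human chromosome 21 that were expressed in DU145 or PC3, 2 established prostate cancer cell lines grown from a brain metastasis and a bone metastasis. A gene was taken where the deposited table lists it as protein-coding on chromosome 21 and its control libraries averaged at least 5 TPM in DU145 or in PC3. TPM is a level per transcript length, scaled so that every library has an equal total. TFF1, TFF2, TFF3, TMPRSS2, MX1, LSS, PFKL and the collagen genes were left out by name. This gave 83 of the 202 chromosome 21 genes listed as protein-coding, in a table of 57905 genes, and 8 further genes reached the level but were left out by name. The genes were thus chosen by their control levels, which are given as a description. Of the 83 genes, 73 reached 5 TPM in both lines, 5 in DU145 alone (CXADR, SYNJ1, LCA5L, SH3BGR and AP001579.1) and 5 in PC3 alone (ADAMTS1, AP000688.1, CLDN14, AP000695.1 and MX2). All 83 passed the filter on low values of the tests. Nearest to the threshold on the inside were SH3BGR, with control means of 5.11 TPM in DU145 and 4.64 in PC3, SYNJ1, with 5.57 and 4.98, and LCA5L, with 5.88 and 2.06. Nearest on the outside were AP001631.10 with 4.76 and 1.57, DNAJC28 with 4.20 and 1.23, and C21orf49 with 3.99 and 1.06.

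Each line was given a lentivirus that carries TRIB1, a pseudokinase gene whose product hands C/EBP factors and other substrates to COP1, a ubiquitin ligase, or an empty lentivirus as the control. This gives a control and a TRIB1 group in each line, 4 groups of 2 libraries. The controls of each line thus also carry a virus. The promoter of the TRIB1 virus, and whether the infected cells were pools or clones, are not stated in the labels. Whether the libraries of a group came from separate cultures is not stated either, so a p-value reflects the spread of these libraries alone, possibly technical.

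Chromosome 21 is the smallest human autosome, and an extra copy of it causes Down syndrome, in which many of its genes are expressed in proportion to their extra dose. It carries a cluster of receptor subunits for interferons and interleukin 10, the transcription factors RUNX1, ETS2 and GABPA, the amyloid precursor APP, the superoxide dismutase SOD1 and the purine enzyme GART. Cancer lines often carry altered numbers of single chromosomes. DNA copy number was not measured in these samples.

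The target gene TRIB1 was at 10.1 and 7.94 TPM in the DU145 controls and at 69.4 and 62.3 in the DU145 TRIB1 libraries. In PC3 it was at 45.1 and 50.8 in the controls and at 241 and 245 with TRIB1. Depth is unknown, because TPM keeps no read totals, and between 19731 and 21335 genes reached 1 TPM per library. Of 5 epithelial markers, the summed level was 1950 to 2168 TPM in DU145, 1068 and 1071 in the PC3 controls and 2957 and 3087 in the PC3 TRIB1 libraries. Summed leukocyte markers stayed at 2.26 to 3.62 TPM, endothelial markers at 0.388 to 3.88, and fibroblast markers at 42.4 to 71.2, mostly COL1A1. Luminal prostate markers summed to 4.13 to 12.7 TPM, with KLK3 listed at 0 in 7 of the 8 libraries. The short RNAs RN7SL1 and RN7SL2 took 3.17% of all TPM in the second DU145 TRIB1 library, against 1.27% to 2.24% in the others. The part of these shares in the results below was not tested. In bulk samples, fewer cells that express a gene and less RNA per cell cannot be told apart.

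In DU145, 80 of the 83 chromosome 21 genes had a log2 change below 0 with TRIB1. Summed over the 83 genes, the DU145 controls held 5846 and 5914 TPM, and the TRIB1 libraries held 4643 and 4509. As a share of all TPM this was 0.585% and 0.591% in the controls against 0.464% and 0.451% with TRIB1, and the groups did not overlap. The median log2 change of the 83 genes was -0.40, a level 0.757 of that in the controls, and the 25th and 75th percentiles of the genes were -0.53 and -0.27. The change was below 0 for 80 genes, and the 3 above 0 were C21orf119, SYNJ1 and AP000688.1. Over all 25982 genes tested the median was -0.04. Over the 9629 protein-coding genes of the other chromosomes that passed the same level rule it was -0.07, with 62.0% of them below 0. The controls that chose the genes also enter these changes, on this chromosome and on the others. Each TRIB1 library alone gave a median near the joint one, -0.39 for the first and -0.42 for the second, each against the mean of the controls.

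Both TRIB1 libraries lay below both controls for 71 of the 83 genes and above both for 1, C21orf119. Among all genes tested, 29.7% had both TRIB1 libraries below both controls and 17.6% had both above. By limma with Benjamini-Hochberg adjustment over all genes tested, 16 of the 83 fell at an adjusted p below 0.05, none rose and 67 did not pass. Of all genes tested, 2.01% fell and 0.712% rose. Of the protein-coding genes of other chromosomes at the same level, 3.58% fell and 39.8% had both TRIB1 libraries below both controls. At an unadjusted p below 0.05, 57 of the 83 were lower and 0 higher. Of all 25982 genes tested, 3112 were lower and 1487 higher by this threshold. Of the 9629 protein-coding genes of other chromosomes at the same level, 1740 were lower and 665 higher. The 16 were RUNX1, NRIP1, LTN1, IL10RB, IFNAR1, ETS2, AGPAT3, SUMO3, PTTG1IP, BACE2, APP, HLCS, WRB, YBEY, C21orf33 and PRMT2. Only RUNX1 also passed a log2 change of 1 and was called, against 0.804% of all genes called lower. The count of genes that fell moved with single libraries: with any 1 library left out it lay between 3 and 17, while 79 or 80 genes stayed below 0. It was 4 without the second DU145 TRIB1 library, 6 without the first, 4 and 6 without either DU145 control, and 3 without either PC3 TRIB1 library. It was 8 under median-of-ratios scaling, 28 among protein-coding genes alone, and 0 when the DU145 libraries were fitted without PC3. The count below 0 was then 77, 78 and 80. Of all genes in each of these fits, 1.33%, 5.98% and 0% fell, so the background moved with the setting.

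Set against the other chromosomes by the same level rule, and with the 8 genes left out by name put back, chromosome 21 had the lowest median change in DU145 of the 22 autosomes and X. Its 91 genes had a median of -0.40, chromosome 20 followed with -0.27 and chromosome 7 with -0.16, and the highest was chromosome 15 with 0.11. On chromosome 21, 93.4% of the genes were below 0, and on chromosome 20 86.9%. In PC3 the order was not the same: chromosome 20 and chromosome 21 both had a median of -0.24 and chromosome 7 had -0.21, while chromosome 12 was highest with 0.15. These are descriptions of medians, with no test between chromosomes.

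**Figure D1:**
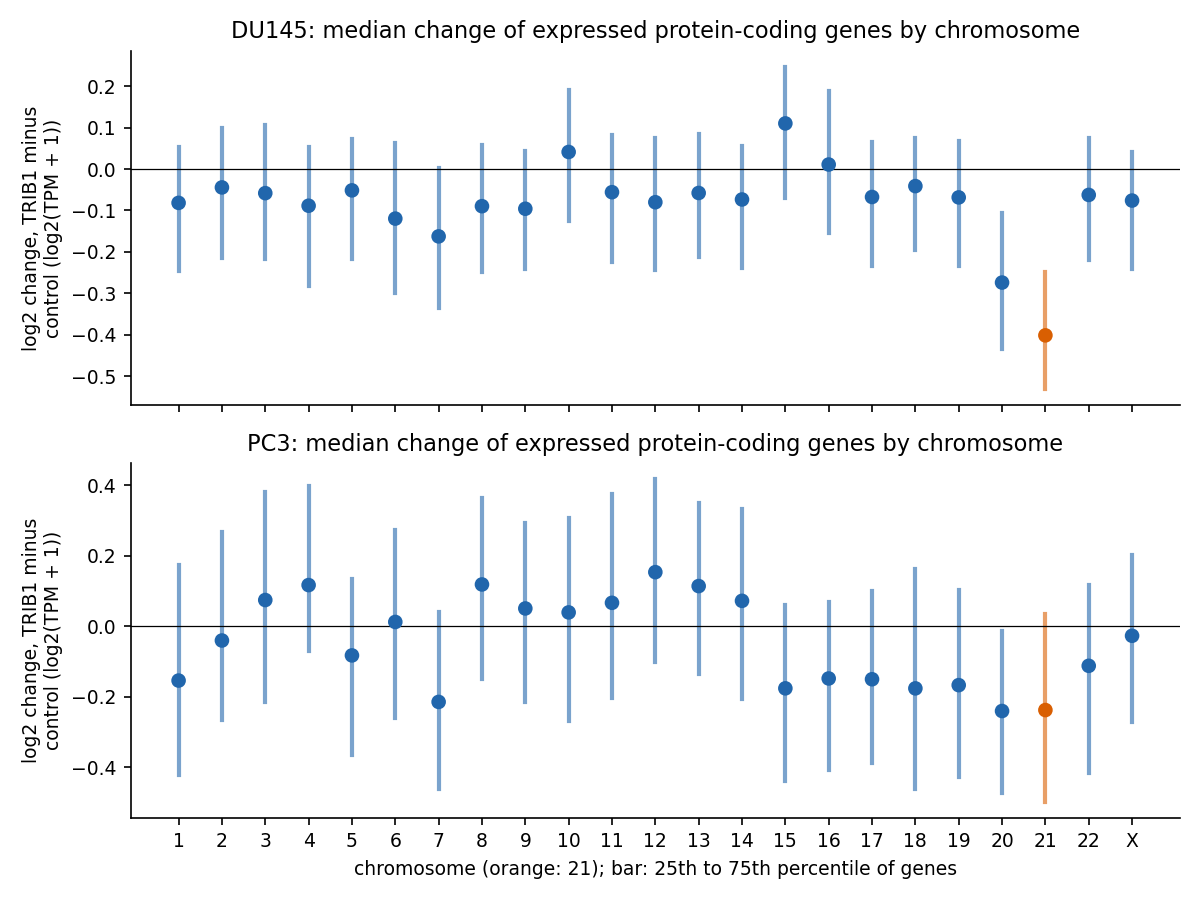
Median log2 change (vertical axis, TRIB1 minus control, log2(TPM + 1) scale) of the protein-coding genes at 5 TPM or more in the controls, for each chromosome (horizontal axis), in DU145 above and PC3 below, with bars from the 25th to the 75th percentile of genes. In DU145 chromosome 21 stands lowest at -0.40, and in PC3 it stands beside chromosome 20 at -0.24.

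The lower levels in DU145 ran along the whole chromosome. By listed start, all 11 genes before 30 Mb were below 0 with a median log2 change of -0.40. Between 30 and 40 Mb 31 of 34 were below 0, with a median of -0.37. All 14 genes between 40 and 45 Mb and all 24 after 45 Mb were below 0, with medians of -0.45 and -0.40. In PC3 the medians of these stretches were -0.19, -0.18, -0.12 and -0.29. The build of the listed intervals is not stated, and they differ from the build that the submitters' notes name.

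**Figure D2:**
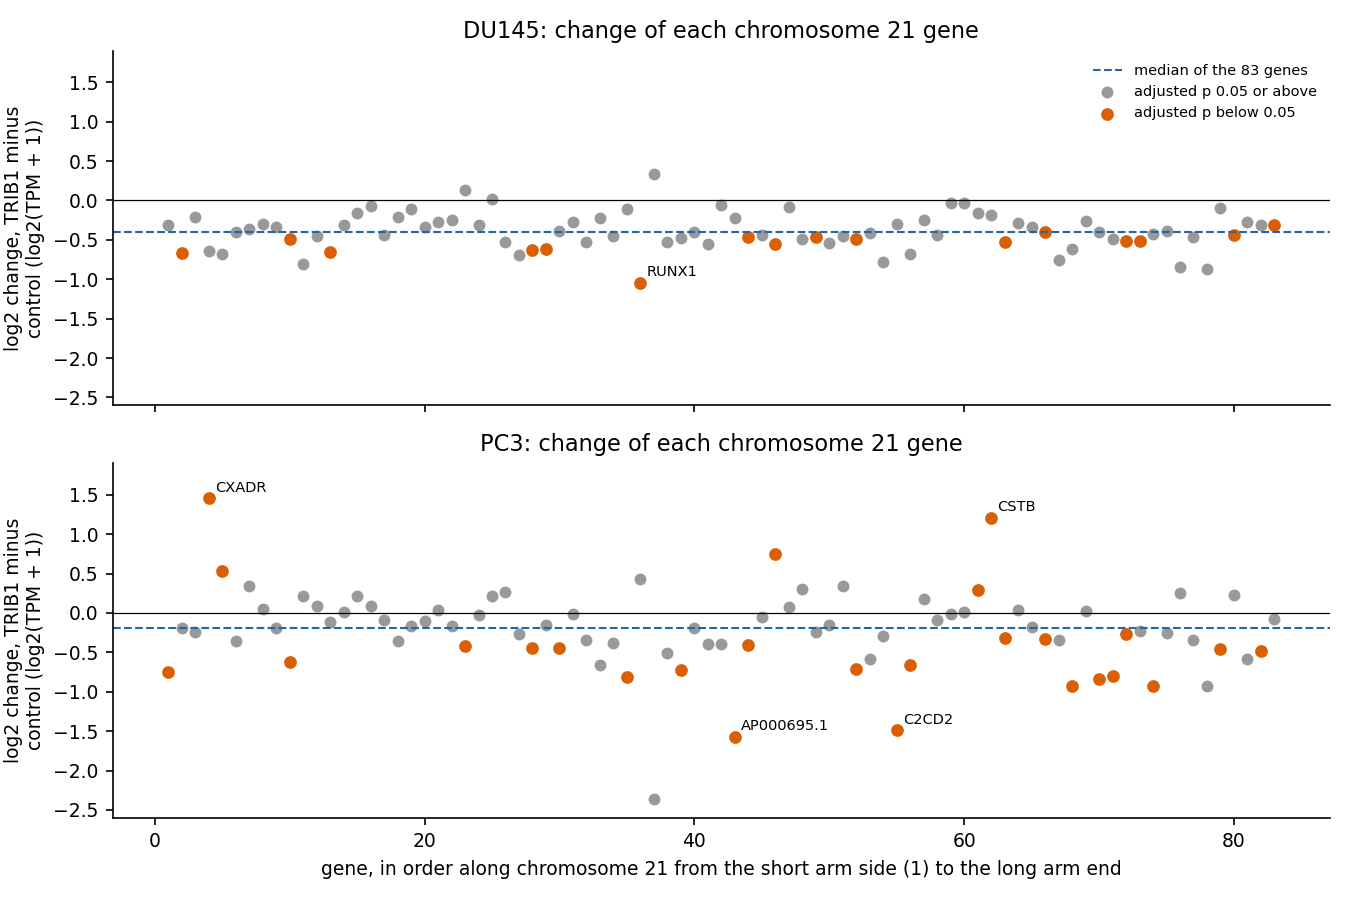
Log2 change with TRIB1 (vertical axis, log2(TPM + 1) scale) of the 83 genes in their order along chromosome 21 (horizontal axis, rank), in DU145 above and PC3 below. DU145 points lie below 0 for 80 genes along the whole order, and PC3 points lie on both sides.

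A further 29 chromosome 21 genes, protein-coding in GENCODE 29 but listed under another type in the table, were not part of the set. Their median log2 change in DU145 was -0.27, and 24 of the 29 were below 0. For 21 of them both TRIB1 libraries lay below both controls, and 3 fell, against 29.7% and 2.01% of all genes tested. For protein-coding genes of other chromosomes at the same level these shares were 39.8% and 3.58%. In PC3 the median of the 29 was -0.20 and 11 fell. There 9.33% of all genes and 16.2% of those protein-coding genes fell. Limma passed 0 of the 29 as higher in PC3, against 7.67% of all genes. At an unadjusted p below 0.05, 1 of the 29 was higher, against 3596 of all 25982 genes tested.

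The receptor cluster for interferons and interleukin 10 holds 4 of the genes, listed from 34602206 (IFNAR2) to 34809828 (IFNGR2) in the table's own build. IFNAR1 and IFNAR2 form the type I interferon receptor, IFNGR2 is the second chain of the interferon-gamma receptor, and IL10RB is a chain shared by the receptors of interleukin 10, interleukin 22 and type III interferons. In DU145 all 4 were lower in both TRIB1 libraries than in both controls, with a median log2 change of -0.62. That order held for 29.7% of all genes tested and for 85.5% of the 83 genes. By limma 2 of the 4 fell, against 2.01% of all genes tested and 19.3% of the 83. IFNAR1 was at 116 and 104 TPM in the DU145 controls and at 75.3 and 68.4 with TRIB1, and fell by 0.61 (SE 0.0818, limma adjusted p = 0.0264). IL10RB was at 50.4 and 48.5 against 32.9 and 30.2 TPM, and fell by 0.63 (SE 0.105, limma adjusted p = 0.0439). IFNAR2 was at 63.5 and 57.1 against 35.7 and 38.0 TPM (limma adjusted p = 0.0508) and IFNGR2 at 67.9 and 65.3 against 52.0 and 49.0 (limma adjusted p = 0.0747), and neither passed. Leaving out single libraries ended the result of IFNAR1 for all but DU145 control 2 and DU145 TRIB1 1, and that of IL10RB for all but the PC3 controls.

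In PC3 the 4 receptor genes were also lower in both TRIB1 libraries than in both controls. That order held for 29.8% of all genes tested and for 61.4% of the 83 genes. By limma 2 of the 4 fell there, against 9.33% of all genes tested and 25.3% of the 83. IL10RB, at 23.6 and 19.5 TPM in the controls and 15.7 and 15.3 with TRIB1, fell by 0.45 (limma adjusted p = 0.0385). IFNGR2, at 59.7 and 52.6 against 39.8 and 42.0 TPM, fell by 0.44 (limma adjusted p = 0.0187). The result of IL10RB held only without PC3 control 2, and that of IFNGR2 was lost without either PC3 TRIB1 library. IFNAR1 and IFNAR2 did not pass in PC3, with log2 changes of -0.15 and -0.27. None of the 4 passed the test of the difference between the lines.

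The partners of these receptors lie on other chromosomes, and 15 of them were measured. In DU145 all 15 were below 0, with a median log2 change of -0.33. Both TRIB1 libraries lay below both controls for 11 of them, against 29.7% of all genes tested and 85.5% of the 83. By limma 3 of the 15 fell, among them STAT2 by 0.60 and the kinase JAK1 by 0.53 on the log2 scale. In PC3 5 rose and 1 fell, among them USP18, a protease that removes ISG15, which rose by 0.94. The difference between the lines passed for 6 of the 15, all with the DU145 change below the PC3 change. Of these, 4 were called: IFNGR1, JAK1, STAT2 and USP18. Among all genes tested, 2.01% fell in DU145, 7.67% rose and 9.33% fell in PC3, and the difference was lower for 5.36% and called lower for 3.01%. STAT3 was at 142 TPM in the DU145 controls and at 0.14 in the PC3 controls, and did not pass with TRIB1 in either line.

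The 13 transcription factors and chromatin proteins were all lower in both DU145 TRIB1 libraries than in both controls, and 4 of them fell. Of all genes tested 29.7% were so ordered and 2.01% fell, and of the 83 genes 85.5% and 19.3%. RUNX1, a DNA-binding factor of blood and epithelial development, was at 81.3 and 77.2 TPM in the DU145 controls and at 38.0 and 37.9 with TRIB1. It fell by 1.04 in DU145 (SE 0.118, limma adjusted p = 0.0169), and this result was lost without any 1 library of DU145 or either PC3 TRIB1 library, at adjusted p-values of up to 0.0912. In PC3 RUNX1 went from 36.5 and 47.1 to 56.5 and 56.4 TPM, without overlap, and did not pass (limma adjusted p = 0.0572). NRIP1, a corepressor of nuclear receptors, was at 15.9 and 16.0 TPM against 10.2 and 9.16 in DU145 and fell by 0.67 (limma adjusted p = 0.0290), a result lost without either DU145 control, DU145 TRIB1 replicate 2 or either TRIB1 library of PC3. PRMT2, an arginine methyltransferase, fell by 0.31 in DU145, and ETS2 is described with the differences between the lines. BACH1, a repressor of heme and redox genes, was at 17.2 and 18.4 TPM against 12.2 and 13.6 in DU145 and did not pass. In PC3 1 of the 13 rose, ETS2, and 1 fell, ZBTB21, with 7.67% of all genes rising and 9.33% falling in that line.

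Among 9 genes of the amyloid precursor, membrane traffic and cytoskeleton, 2 fell in DU145 and 3 fell in PC3. The shares that fell were 2.01% and 9.33% of all genes tested, and 19.3% and 25.3% of the 83. APP encodes the amyloid precursor protein and had the highest mean level of the 83 genes. It was at 887 and 873 TPM in the DU145 controls and 637 and 621 with TRIB1, and at 657 and 654 in the PC3 controls and 437 and 418 with TRIB1. It fell by 0.48 in DU145 (SE 0.0424, limma adjusted p = 0.00769) and by 0.62 in PC3 (SE 0.0424, limma adjusted p = 0.00134), and its difference between the lines was 0.13 (limma adjusted p = 0.237). BACE2, a membrane protease able to cut APP, was at 48.9 and 51.4 against 36.1 and 34.8 TPM in DU145 and at 75.4 and 66.9 against 41.9 and 44.1 in PC3. It fell by 0.49 and by 0.71 (limma adjusted p = 0.0399 and 0.00451), the first lost without any 1 library of DU145 or either PC3 TRIB1 library. The listed interval of APP overlaps AP001439.2, and that of BACE2 overlaps PLAC4, both on the opposite strand. Of 11 genes of APP processing on other chromosomes, 1 fell in DU145, the gamma-secretase subunit PSENEN. In PC3 3 of them fell and 1 rose, against 9.33% and 7.67% of all genes, and 2.01% of all genes fell in DU145.

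Metabolic enzymes and carriers counted 10, with 2 that fell in DU145, AGPAT3 and HLCS, against 2.01% of all genes tested and 19.3% of the 83. AGPAT3, an acyltransferase of phospholipid synthesis, went from 54.2 and 55.0 to 38.1 and 36.9 TPM in DU145 and fell by 0.53 (limma adjusted p = 0.0148). HLCS, which attaches biotin to carboxylases, fell by 0.46 in DU145 and by 0.40 in PC3. SOD1, the cytosolic superoxide dismutase, was at 580 and 613 against 582 and 530 TPM in DU145 and overlapped between the groups. GART, a trifunctional enzyme of purine synthesis, was at 98.8 and 116 against 83.4 and 93.7 TPM and did not pass in either line. Of 11 other genes of purine synthesis, all on other chromosomes, limma passed 0 in DU145. At an unadjusted p below 0.05, 2 were higher and 2 lower, against 1487 and 3112 of all 25982 genes tested.

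In PC3 4 of these 10 metabolic genes fell and 1 rose, against 9.33% and 7.67% of all genes tested. Of the 83 genes 25.3% fell in PC3. SLC5A3, a myo-inositol carrier, fell by 0.81, from 15.9 and 15.8 to 9.03 and 8.26 TPM, and its listed interval overlaps MRPS6 and a second entry of its own name. CBR3, a carbonyl reductase, fell by 0.72. PDXK, pyridoxal kinase, rose by 0.29, from 174 and 194 to 229 and 221 TPM (limma adjusted p = 0.0292).

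Among 8 genes of protein folding, ubiquitin and proteolysis control, LTN1 and SUMO3 fell in DU145. In that line 2.01% of all genes tested and 19.3% of the 83 fell. LTN1, the ubiquitin ligase of stalled ribosomes, went from 12.2 and 13.2 to 7.54 and 7.85 TPM (limma adjusted p = 0.0298), a result lost without the same 6 libraries as that of BACE2. SUMO3, a small modifier protein, went from 145 and 147 to 103 and 100 TPM, and fell by 0.52 (SE 0.0494, limma adjusted p = 0.0104). In PC3 SUMO3 fell by 0.27 (limma adjusted p = 0.0188, lost without the second PC3 TRIB1 library) and HSPA13, a chaperone of the HSP70 family, fell by 0.74, while CSTB rose. The chaperonin subunit CCT8 and the proteasome assembly factor PSMG1 overlapped between the DU145 groups, at 241 and 262 against 262 and 218 TPM and at 78.4 and 78.5 against 79.4 and 68.6.

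The other groups held few genes that passed in DU145, where 2.01% of all genes tested fell and 29.7% had both TRIB1 libraries below both controls. For the 83 genes these shares were 19.3% and 85.5%. Of 7 genes of RNA splicing and ribosome making, 1 fell, YBEY, and 6 were lower in both TRIB1 libraries. SON, a splicing cofactor, was at 229 and 245 against 176 and 152 TPM (limma adjusted p = 0.0841). Of 5 kinases, signalling genes and channels, limma passed 0 in DU145. At an unadjusted p below 0.05, 2 were lower, against 3112 of all 25982 genes tested. The salt-inducible kinase SIK1 was at 49.9 and 46.6 against 48.0 and 46.6 TPM, with a log2 change of -0.03. TIAM1, an exchange factor for Rac, was at 14.33 and 14.03 against 11.6 and 12.5 TPM and did not pass. Of 6 genes of the cell surface, adhesion and matrix, 1 fell in DU145, PTTG1IP, from 327 and 338 to 238 and 227 TPM.

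The 19 genes on none of the lists had 2 that fell in DU145, C21orf33 and WRB, which serves the insertion of tail-anchored membrane proteins. This was 10.5% of the 19, where 2.01% of all genes tested and 19.3% of the 83 fell. In PC3 8 of the 19 fell, against 9.33% of all genes tested and 25.3% of the 83. C21orf2 went from 25.9 and 35.7 to 15.3 and 15.7 TPM there and fell by 0.93 (limma adjusted p = 0.0153), a result lost without either PC3 TRIB1 library. C21orf67 went from 99.2 and 105 to 56.4 and 50.8 TPM and fell by 0.92 (limma adjusted p = 0.00832), a result lost without the second PC3 TRIB1 library. AP000688.1 and AP001579.1 scattered between replicates: the first was at 15.6 and 6.66 TPM in the PC3 controls against 0 and 3.84, and the second at 42.0 and 11.0 in the DU145 controls against 8.24 and 16.3. The log2 changes of both carry standard errors of 0.69 or more.

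PC3 had changes in both directions on this chromosome. The median log2 change of the 83 genes was -0.19, against -0.05 for protein-coding genes of the other chromosomes at the same level, and 58 genes were below 0. By limma, 21 fell and 5 rose (CXADR, BTG3, ETS2, CSTB and PDXK), where 9.33% of all genes tested fell and 7.67% rose. Of the 83 genes 25.3% fell, against 16.2% of the protein-coding genes of other chromosomes at the same level. Both TRIB1 libraries lay below both controls for 51 genes and above both for 15, against 29.8% and 24.5% of all genes tested, and 39.0% of those protein-coding genes lay below. CSTB and CXADR were called higher and C2CD2 and AP000695.1 called lower, against 2.52% and 2.67% of all genes. With any 1 library left out, between 11 and 20 fell, and 11 without either PC3 TRIB1 library. Summed TPM was 5001 and 4966 in the PC3 controls and 4585 and 4505 with TRIB1, so the groups did not overlap. The genes that fell in both lines were APP, BACE2, IL10RB, HLCS, AGPAT3, C21orf33 and SUMO3, 7 in all. They were 43.8% of those that fell in DU145 and 33.3% of those that fell in PC3. Of all 83 genes 19.3% fell in DU145 and 25.3% in PC3. The overlap over all genes tested was not counted, so the 7 are a description.

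**Figure D3:**
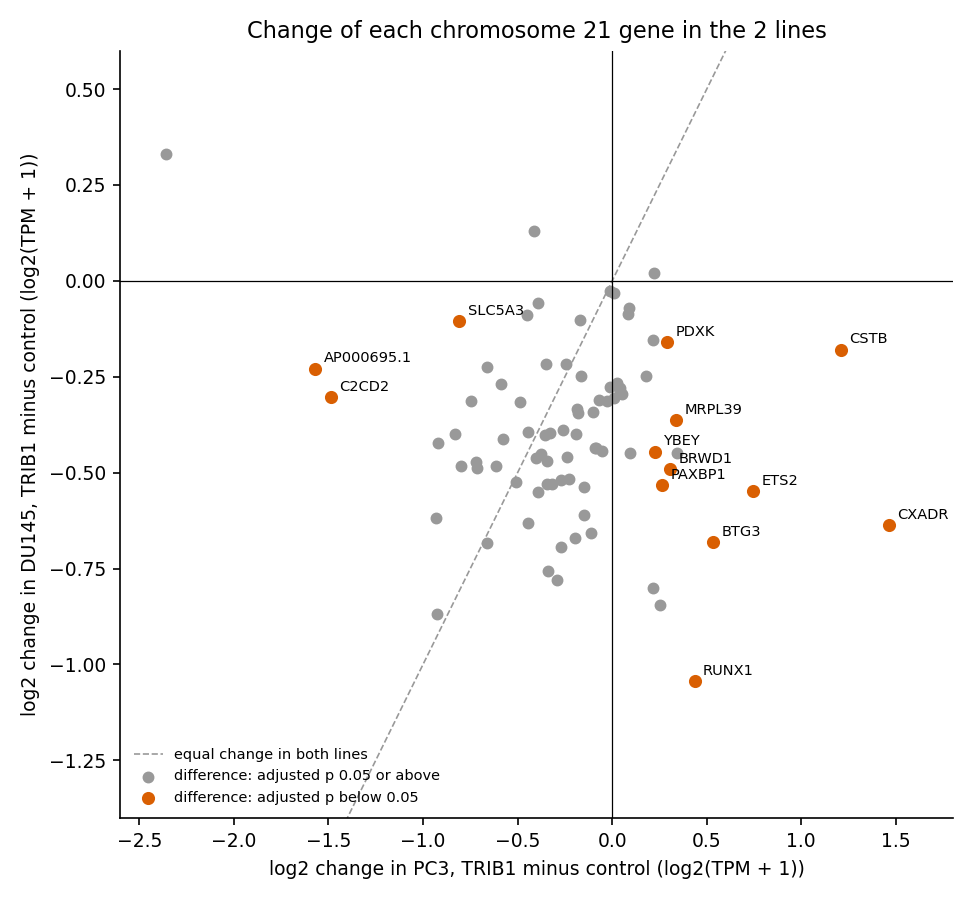
Log2 change with TRIB1 in DU145 (vertical axis) against that in PC3 (horizontal axis), 1 point per gene, both on the log2(TPM + 1) scale. Of the 83 genes 56 are below 0 in both lines, and 24 are below 0 in DU145 and above 0 in PC3, among them CXADR, CSTB, ETS2, BTG3 and RUNX1.

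The lines were then compared by a direct test. This test of the difference, the change in DU145 minus the change in PC3, passed for 13 of the 83 genes. It was negative for 10 and positive for 3, against 5.36% and 4.01% of all genes tested. Among the 9629 protein-coding genes of other chromosomes at the same level it was negative for 863 and positive for 673. With an absolute log2 difference over 1, 5 were called negative (CXADR, RUNX1, CSTB, ETS2 and BTG3) and 2 called positive (AP000695.1 and C2CD2). Of all genes 3.01% and 2.11% were so called, and of those 9629 genes 383 and 304. These calls are on the difference and not on the change in DU145, where AP000695.1 and C2CD2 were also below 0. CXADR is in the set through the DU145 controls alone and AP000695.1 through the PC3 controls alone, so their differences, and the fall of AP000695.1 in PC3, share the controls that let them in and are no support for the count. With any 1 library left out, 4 to 12 differences were negative, 0 to 2 positive and 4 to 6 called. The negative count was lowest, 4, without DU145 control 1, and was 5 without PC3 TRIB1 2 and 6 without DU145 control 2 or either DU145 TRIB1 library. The positive count was 2 without DU145 TRIB1 1 and 0 or 1 without any other library. The called count was 4 without DU145 control 1 or PC3 TRIB1 2. The median difference was -0.19.

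CSTB encodes cystatin B, an inhibitor of lysosomal cysteine proteases. It was at 178 and 174 TPM in the PC3 controls and at 414 and 403 with TRIB1, and at 92.5 and 91.8 against 81.3 and 81.3 in DU145. It rose by 1.21 in PC3 (SE 0.0437, limma adjusted p = 0.000734), and the difference between the lines was -1.39 (limma adjusted p = 0.00132). ETS2, a transcription factor of the ETS family, was at 26.2 and 28.9 TPM in the DU145 controls against 18.3 and 18.7, and at 33.2 and 33.9 in the PC3 controls against 56.6 and 57.1. It fell by 0.55 in DU145 (limma adjusted p = 0.0247), rose by 0.74 in PC3 (limma adjusted p = 0.00318), and differed between the lines by -1.29 (limma adjusted p = 0.00376). The DU145 result was lost without any 1 TRIB1 library of either line. Its groups overlapped in neither line, with DU145 lower and PC3 higher under TRIB1.

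CXADR is the coxsackievirus and adenovirus receptor, an adhesion protein of cell junctions. It was at 34.4 and 33.0 TPM in the DU145 controls against 20.4 and 22.2, and at 3.51 and 2.14 in the PC3 controls against 9.16 and 9.58. It rose by 1.46 in PC3 (SE 0.176, limma adjusted p = 0.00558) and did not pass in DU145, where its log2 change was -0.64. Its difference between the lines was the largest of the 83 that passed, -2.10 (limma adjusted p = 0.00975). In PC3 it moved beside the summed epithelial markers given above, and their part in it was not tested. RUNX1 differed by -1.48 (limma adjusted p = 0.00857).

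BTG3, an antiproliferative protein of the BTG/Tob family, was at 120 and 115 TPM in the DU145 controls against 75.2 and 70.7, and at 19.9 and 14.7 in the PC3 controls against 25.9 and 24.4. It differed by -1.21 (limma adjusted p = 0.0201), a result lost without any 1 library of DU145 or either PC3 TRIB1 library, at adjusted p-values of up to 0.0821. Its rise in PC3 by 0.53 (limma adjusted p = 0.0490) held only without PC3 control 1. C2CD2, a protein with a lipid-binding C2 domain, went the other way. It was at 68.8 and 79.6 TPM in the PC3 controls against 27.5 and 24.2, and at 21.1 and 23.1 in DU145 against 19.7 and 15.9. It fell by 1.49 in PC3 (SE 0.136, limma adjusted p = 0.00284) and differed by 1.18 (limma adjusted p = 0.0215), a result lost without either DU145 control, the second PC3 control or either PC3 TRIB1 library. AP000695.1, whose identifier GENCODE 29 does not list as protein-coding, went from 12.1 and 11.4 to 3.72 and 2.91 TPM in PC3 and was below 1 TPM in all DU145 libraries. It fell by 1.57 in PC3 (limma adjusted p = 0.00421) and differed by 1.34, a difference that held only without the first TRIB1 library of one or the other line.

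Within each line the TRIB1 and control libraries of CSTB, CXADR, BTG3 and C2CD2 did not overlap. These genes, like RUNX1 and ETS2, were called by a test on the same libraries, so this order is a description and no added support. In DU145 29.7% of all genes tested lay below without overlap and 17.6% above. The shares in PC3 were 29.8% and 24.5%.

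The remaining differences were under the fold for a call. MRPL39 (a mitochondrial ribosome protein), PAXBP1, BRWD1 (a bromodomain protein), YBEY and PDXK had differences between -0.80 and -0.45, and SLC5A3 had 0.70, a result lost without any 1 of the 8 libraries. PDXK rose in PC3, YBEY fell in DU145, and MRPL39, PAXBP1 and BRWD1 passed within neither line.

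**Figure D4:**
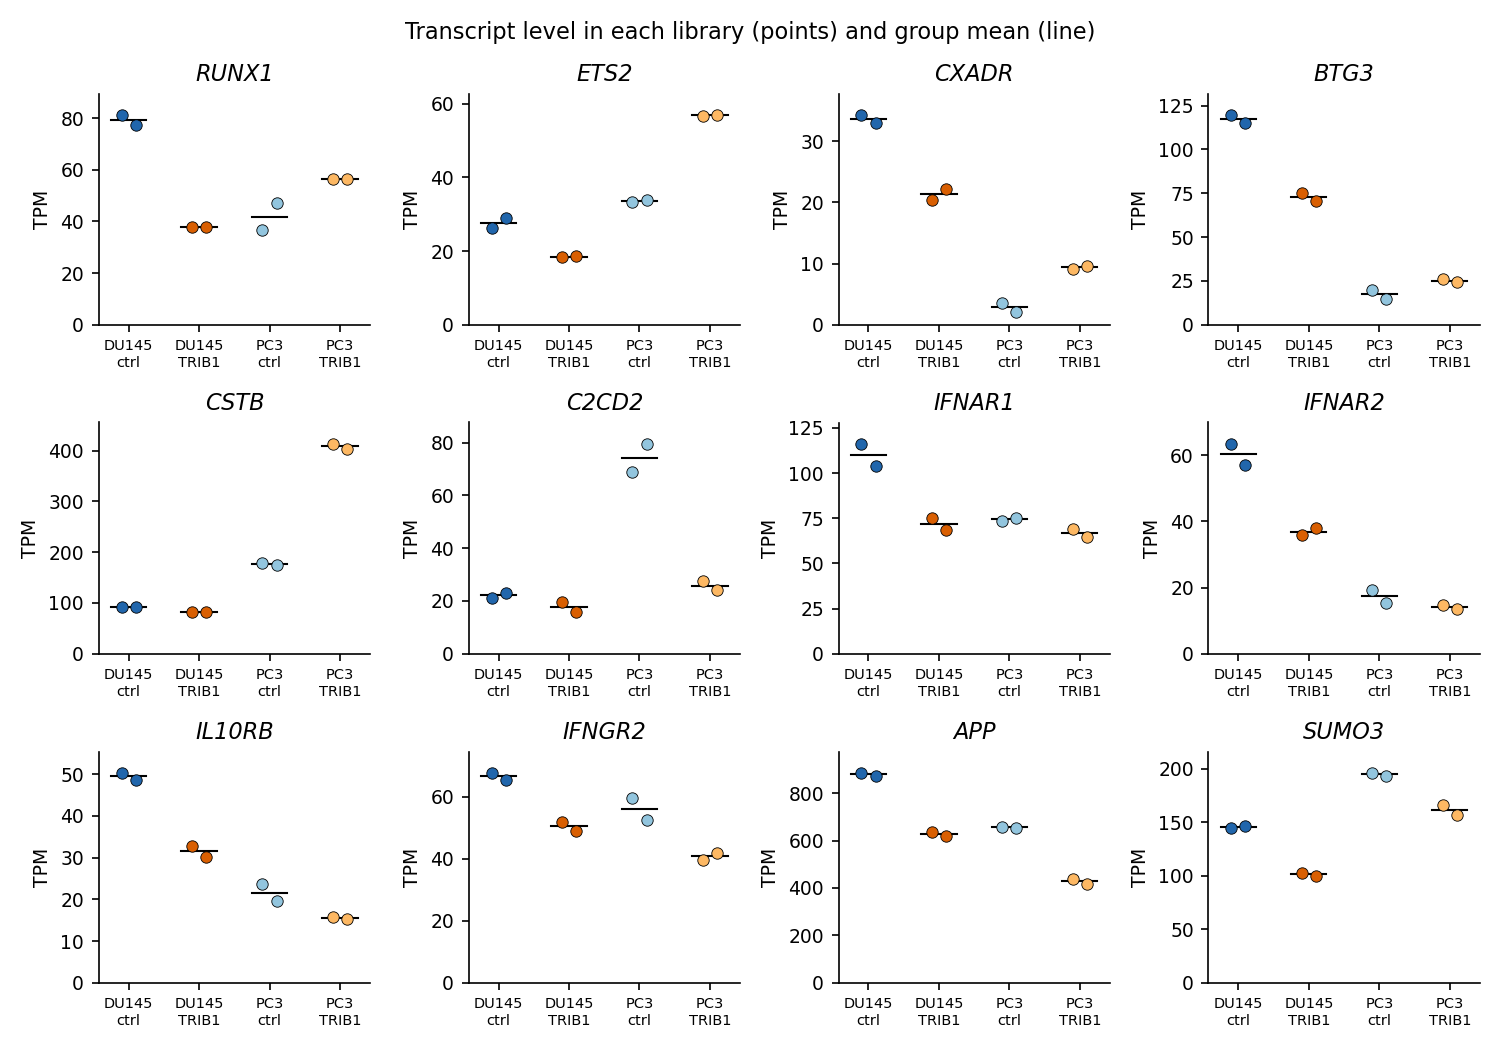
Level in TPM (vertical axes, from 0) of selected chromosome 21 genes in each of the 8 libraries, by group, with lines at the group means. CSTB, CXADR and ETS2 lie higher in the PC3 TRIB1 libraries than in the PC3 controls, and RUNX1 and BTG3 lie lower in the DU145 TRIB1 libraries than in the DU145 controls.

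**Figure D5:**
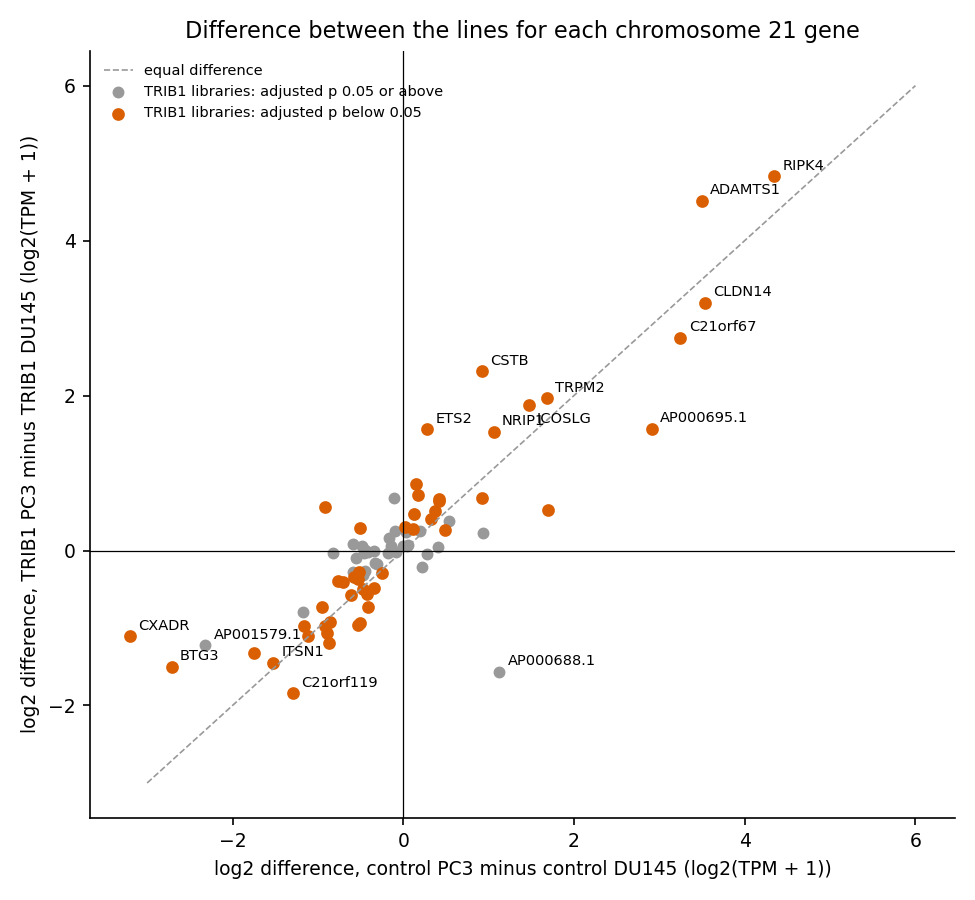
Control log2 difference, PC3 minus DU145 (horizontal axis), against the same difference under TRIB1 (vertical axis) for the 83 genes, on the log2(TPM + 1) scale. RIPK4, ADAMTS1 and CLDN14 are higher in PC3 in both, and CXADR and BTG3 lie closer to 0 under TRIB1 than in the controls.

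The promoters of 4 of the 7 called differences are in the RefSeq promoter table on GRCh38.p14 and are printed because these genes moved apart between the lines. Each window holds 300 bases, 250 before the start and 50 after. Capitals mark matches, on either strand, to the binding letters of C/EBP factors (TTGCNNAA), which TRIB1 acts on, of ETS factors (CCGGAAGT), or of RUNX factors (TGTGGTT). RUNX1 lies at chr21:34888650-34888949 on the minus strand, ETS2 at chr21:38804933-38805232 on the plus strand, BTG3 at chr21:17612852-17613151 on the minus strand and C2CD2 at chr21:41953969-41954268 on the minus strand. The window of ETS2 holds 1 RUNX match, 241 bases before the start, and the other 3 hold no match of the 3 motifs in these windows.
RUNX1: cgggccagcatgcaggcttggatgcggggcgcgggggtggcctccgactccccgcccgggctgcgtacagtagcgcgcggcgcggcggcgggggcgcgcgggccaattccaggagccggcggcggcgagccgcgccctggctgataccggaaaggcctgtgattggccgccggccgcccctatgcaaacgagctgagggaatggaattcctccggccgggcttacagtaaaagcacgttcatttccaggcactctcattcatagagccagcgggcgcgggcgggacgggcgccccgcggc
ETS2: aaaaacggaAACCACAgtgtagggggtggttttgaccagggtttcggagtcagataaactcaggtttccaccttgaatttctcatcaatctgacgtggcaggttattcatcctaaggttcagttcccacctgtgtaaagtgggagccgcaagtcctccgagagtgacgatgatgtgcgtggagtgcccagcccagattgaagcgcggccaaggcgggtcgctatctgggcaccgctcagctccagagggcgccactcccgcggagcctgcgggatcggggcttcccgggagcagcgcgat
BTG3: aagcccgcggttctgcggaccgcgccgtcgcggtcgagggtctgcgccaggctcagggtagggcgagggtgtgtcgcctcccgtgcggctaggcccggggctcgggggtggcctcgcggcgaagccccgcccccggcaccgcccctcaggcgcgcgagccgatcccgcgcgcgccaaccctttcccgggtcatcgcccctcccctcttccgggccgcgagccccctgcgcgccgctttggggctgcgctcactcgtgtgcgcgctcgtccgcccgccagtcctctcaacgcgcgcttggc
C2CD2: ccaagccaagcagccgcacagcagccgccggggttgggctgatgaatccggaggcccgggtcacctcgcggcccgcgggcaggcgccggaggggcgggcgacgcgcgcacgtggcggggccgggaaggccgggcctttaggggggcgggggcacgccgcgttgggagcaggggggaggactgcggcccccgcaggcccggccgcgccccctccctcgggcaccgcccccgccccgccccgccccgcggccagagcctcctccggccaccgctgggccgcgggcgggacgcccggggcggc

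Of the 83 genes 62 had an entry in that table. A C/EBP match was in 5 of the 62 windows (8.06%), against 10.5% of all 35116 promoters in the table and 6.87% of 7775 promoters of expressed protein-coding genes on other chromosomes. An ETS match was in 10 windows (16.1%), against 4.14% and 8.93%. The overlapping windows of C21orf67 and FAM207A hold the same ETS match, which is counted for both. A RUNX match was in 2 windows (3.23%), against 4.27% and 2.84%. A match is a description of the letters, and the binding of these factors was not measured.

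GABPA, an ETS factor that itself starts head to head with the ATP synthase subunit gene ATP5J, is shown for its ETS match, in capitals, 67 bases before the start. Its window lies at chr21:25734722-25735021 on the plus strand.
GABPA: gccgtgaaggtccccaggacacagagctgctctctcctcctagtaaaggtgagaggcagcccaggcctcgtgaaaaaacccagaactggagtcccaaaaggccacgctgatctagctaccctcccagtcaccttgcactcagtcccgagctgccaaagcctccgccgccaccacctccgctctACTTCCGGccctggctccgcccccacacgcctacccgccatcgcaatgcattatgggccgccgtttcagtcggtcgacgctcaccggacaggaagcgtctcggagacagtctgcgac
ATP5J and GABPA were lower in both DU145 TRIB1 libraries by similar log2 changes, -0.29 and -0.34, and neither passed. Of 6 such pairs whose listed starts lie within 1000 bases, 5 had both genes below 0 in DU145. The exception was URB1 with -0.25 and C21orf119 with 0.13. Of all 83 genes 96.4% were below 0 in DU145, so the count of pairs says nothing particular to them. In the controls C21orf67 was higher in PC3 by 3.25 and its partner FAM207A by 0.38. The listed intervals of ATP5J and GABPA overlap, and reads of overlapping genes cannot be told apart where strand was not used in the counting.

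Between the lines the chromosome 21 genes differed in both directions. In the controls, which chose the genes and carry no test here, the median log2 difference PC3 minus DU145 was -0.30, and that of all genes was -0.18. For the 83 genes it was -0.07 under median-of-ratios scaling and -0.19 under upper-quartile scaling. RIPK4, a kinase of epidermal differentiation, was at 6.60 and 5.92 TPM in the DU145 controls and 126 and 170 in the PC3 controls. CLDN14, a tight junction claudin, was at 0.400 and 0.303 against 14.2 and 15.1 TPM, and ADAMTS1, a secreted matrix protease, at 1.22 and 0.562 against 20.0 and 20.1. CXADR and BTG3 were higher in the DU145 controls, with log2 differences of -3.20 and -2.71.

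In the TRIB1 libraries 24 of the 83 were higher in PC3 and 25 lower, against 20.8% and 29% of all genes tested. Among the 9629 protein-coding genes of other chromosomes at the same level, 2934 were higher and 3732 lower. By the fold rule 10 of the 83 were called higher and 8 lower, against 11.6% and 16.5% of all genes. Of those 9629 genes, 1360 were called higher and 1787 lower. The median difference of the 83 was -0.02, where that of all genes was -0.16 and that of the 9629 was -0.11. The largest differences were RIPK4 with 4.83, ADAMTS1 with 4.52, CLDN14 with 3.20, C21orf67 with 2.75 and CSTB with 2.31. ADAMTS1 and CLDN14 reached 5 TPM through the PC3 controls alone, at control means of 0.89 and 0.35 TPM in DU145, so the choice of genes largely fixed their direction, and their values are a description. On the lower side were C21orf119 with -1.84, BTG3 with -1.499, the endocytic scaffold ITSN1 with -1.45 and IFNAR2 with -1.32. Median-of-ratios scaling moved the median of all genes by 0.16 in this comparison, and 34 of the 83 were then higher and 16 lower.

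The listed intervals of 35 of the 83 genes overlap that of another gene, 28 of them on the opposite strand, and whether the counting used strand is not given in the sources used here. Over the genes without such an overlap the DU145 median was -0.42. GENCODE 29 lists 77 of the 83 identifiers, all 77 on chromosome 21, and 75 of them as protein-coding. The other 8 are C21orf119, SLC5A3, AP000688.1, AP000695.1, LRRC3DN, C21orf67, AP001579.1 and PRED62.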

How the data were processed

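Total RNA of DU145 and PC3 cells was sequenced from 8 libraries, 2 in each of 4 groups read from the sample titles. The authors deposited 1 table of values per gene, read here as TPM: the table does not name its unit, every column adds up to 1000000, and the lowest values above 0 differ from gene to gene, as values per length do. Tools named in the submitters' processing notes are TopHat2 2.0.14, DESeq, edgeR and HTSeq, with hg38 as build. Which of them made the TPM, with what annotation, strand setting and lengths, is not given in the sources used here. The listed intervals are not those of that build, and no coordinate was converted. Because values are shares of a fixed total, RNA that rises elsewhere lowers the rest. Read depth is unknown, so no counting interval was computed.

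Genes were tested with limma 3.58.1 under R 4.3.3, with its trend option, on log2(TPM + 1); the 25982 genes tested averaged 1 TPM or more in some group. All 8 libraries entered 1 fit with 4 group means (residual degrees of freedom 4, prior 1.89). A log2 change understates that of low genes. Adjustment was by Benjamini-Hochberg over all genes tested. Rose, fell and passed mean an adjusted p below 0.05, and called adds an absolute log2 change over 1, the cutoff of the series' design. The chromosome 21 genes and the gene lists were chosen with earlier results of these data known, so no list was tested. Named genes are those called (at most 12 a contrast), the 4 largest passing changes per direction, a set of chromosome 21 genes always reported, the highest and lowest by mean level and those nearest 5 TPM. Some genes of the lists on other chromosomes are not reported here by name. Other genes were named after their values were seen. Alternatives were other pseudocounts, filters, scalings, fits and member thresholds, a replicate block, and each library left out. The procedure was tested on simulated data.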

Additional observations from a re-analysis of the deposited data

Results flagged for a closer look

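The change with TRIB1 differed between the lines, by limma's test of DU145 minus PC3 (adjusted p below 0.05 over all genes tested), for 13 chromosome 21 genes. The log2 change in DU145 was below that in PC3 for 10 genes. The differences were -2.10 for CXADR, -1.48 for RUNX1, -1.39 for CSTB, -1.29 for ETS2, -1.21 for BTG3, -0.80 for PAXBP1, -0.80 for BRWD1, -0.70 for MRPL39, -0.67 for YBEY and -0.45 for PDXK. The change in DU145 was above that in PC3 for 3 genes, by 1.34 for AP000695.1, 1.18 for C2CD2 and 0.70 for SLC5A3. The limma adjusted p-values run from 0.00132 for CSTB to 0.0342 for PDXK. By the same test 5.36% of all genes tested were lower and 4.01% higher. Among the 9629 protein-coding genes of other chromosomes at the same level, 863 were lower and 673 higher. With any 1 library left out, 4 to 12 were lower and 0 to 2 higher. CXADR and AP000695.1 each reached the level in the controls of 1 line alone. The differences of CSTB, ETS2, RUNX1 and CXADR passed with any 1 library left out, and that of SLC5A3 no longer passed whichever library was left out.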

How the results depend on the processing

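The DU145 median of the members, -0.40, was -0.4555 and -0.3005 with pseudocounts of 0.1 and 5, -0.3813 with protein-coding genes alone, -0.3312 and -0.345 under median-of-ratios and upper-quartile scaling, and -0.417 to -0.3865 without single libraries. The 16 that fell in DU145 became 10 with no filter, 28 with protein-coding genes alone, 8 and 8 under the scalings, and 0 with the contrast's libraries alone. Of all genes in each of these fits, 1.07%, 5.98%, 1.33%, 1.22% and 0% fell, against 2.01% in the main one. The called gene became 2 with a pseudocount of 0.1 and 0 with 5, under either scaling and with those libraries alone. Without single libraries, 3 to 17 fell and 0 to 1 were called. In PC3, 5 rose, 8 with protein-coding genes alone and 2 with the contrast's libraries alone (3 to 7 without single libraries); 21 fell, 5 with those libraries alone (11 to 20); 4 were called, 2 with those libraries alone (4 to 6). The PC3 median of -0.19 was -0.141 under median-of-ratios scaling (-0.2509 to -0.1876 without single libraries). Of all genes 2.11% fell in PC3 with the contrast's libraries alone, against 9.33% in the fit of all 8 libraries. Of the differences between the lines, 3 were higher, 5 with protein-coding genes alone (0 to 2 without single libraries), 10 lower (4 to 12) and 7 called (4 to 6), with a median of -0.2429 to -0.1688. This difference has no fit on a contrast's libraries alone. Between the TRIB1 libraries of the lines, 25 lower became 16 under median-of-ratios scaling, and the median of -0.02 turned to 0.1859 and 0.06798 under the scalings, and was -0.02253 and -0.02517 with thresholds of 4 and 10 TPM. Without single libraries 17 to 23 were higher, 20 to 24 lower and 18 to 22 called, with medians of -0.02712 to -0.002522. The control median of -0.30 was -0.2681 with a pseudocount of 5, -0.07485 and -0.1904 under the scalings, -0.3346 with a threshold of 10 TPM, and -0.3274 to -0.283 without single libraries.

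Sets of members added after seeing the data: without genes that overlap another, 10 fell in DU145 (median -0.4243), 9 fell in PC3 (median -0.1498), 1 difference was higher (median -0.2789), 12 were higher and 16 lower between the TRIB1 libraries (median -0.02517), and the control median was -0.4524; this set holds fewer genes. With GENCODE 29 protein-coding genes, 1 difference was higher and the TRIB1 median was -0.009925.

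Equal replicate numbers do not pair the libraries (correlations of their deviations -0.0415 in DU145 and -0.0103 in PC3). With the replicate number as a block, 0 fell and 0 were called in DU145, and 3 rose and 8 fell in PC3. Of all genes 0.0385% fell in DU145 and 3.66% in PC3 with this block. Of the differences 0 were higher, 1 lower and 1 called. For single named genes, 2171 of the values kept their side of the threshold, 180 lost and 61 gained it. A change of direction with an adjusted p below 0.05 in either fit occurred for 0 of them. Unless stated otherwise, the cause of a change was not tested. TPM gives no depth, so limits from counting are unknown.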
